A study of Mus musculus with 8 samples.

Results

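The genes described here are 31 transcripts known as markers of the stromal and glial cells that share skeletal muscle with its stem cells. They are 13 genes of fibro-adipogenic progenitors, 7 of mural cells, 4 of Schwann cells and 7 of tendon cells, taken by name from a fixed list, and all 31 were found among the 57180 genes of the count table. The libraries came from muscle stem cells purified by fluorescence-activated sorting directly after isolation. The 4 control libraries (replicates 2, 5, 7 and 8) are labelled WT. The other 4 (replicates 5, 6, 7 and 8) are titled RhoA het, carry the genotype label RhoA knockdown, and come from SC-RhoAfl/+ mice according to the design text; they are called RhoA het here. RhoA is a small GTPase that controls the actin cytoskeleton, and the study asked what changes in expression when its activity is reduced. The driver of the recombination, the age and sex of the mice, the sorting gates and the number of mice per library are not given in the sources used here, so the p-values below measure only the spread between these libraries.

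Fibro-adipogenic progenitors are the Pdgfra-positive mesenchymal cells of the muscle interstitium, which lay down matrix and support stem cells during repair, and which can turn into fibroblasts or fat cells. Mural cells, pericytes and vascular smooth muscle, wrap the endothelium of small vessels. Schwann cells ensheathe and myelinate the axons of motor and sensory nerves, and tendon cells build the collagen-rich tissue that joins muscle to bone. Their markers are often used to judge how pure a sorted population is, but some, among them genes of secreted matrix proteins, are not restricted to a single cell type.

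Libraries held 19138763 to 25606342 assigned fragments. Pax7, the transcription factor of muscle stem cells, was present in every library, between 46.6 and 100.1 TPM. The 10 stem cell markers summed to 9050.1 to 12636 TPM in control and 8838 to 14355 TPM in RhoA het. Sdc4 was the most abundant of them, at 4961 to 9376 TPM, and so made up much of these sums. These levels do not measure how pure the sorted cells were. TPM is the count per base of gene length scaled to the same total in every library, so it can be set side by side between genes. Rhoa itself was at 121 to 148 TPM in control and 111 to 125 TPM in RhoA het. Its log2 fold change was -0.29 (SE 0.13, RhoA het minus control), with an edgeR adjusted p of 0.99983. The groups overlapped in TPM for this gene. RhoA het replicate 6 stood apart by its endothelial genes: the 10 endothelial markers summed to 519 TPM there and to 69.4 to 181 TPM elsewhere. Its erythroid sum was also the highest, at 1284 TPM. In bulk samples such as these, fewer cells of a type and less RNA per cell cannot be told apart. Below, 4 values for a group are always given in the order of replicates 2, 5, 7 and 8 for control and 5, 6, 7 and 8 for RhoA het.

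The 31 genes covered a wide range of levels. Gsn, the gene of the actin-severing protein gelsolin, was the most abundant at 4115 ± 1047 TPM (SD over the 8 libraries), and its lowest library exceeded the highest library of every other listed gene. Dpt followed at 856 ± 178 TPM, then Dcn at 549 ± 341 TPM, Rgs5 at 339 ± 195 TPM, Fmod at 94.8 ± 58.9 TPM, Lum at 65.3 ± 36.1 TPM and Thbs4 at 60.2 ± 38.5 TPM. From Dpt downward the ranges of neighbours in this order overlapped at every step, down to Pi16 (0.308 to 3.97 TPM) and Scx (0.149 to 0.561 TPM), so the order below Gsn is approximate. The lowest were Pdgfra at 2.35 ± 1.48 TPM, Pi16 at 1.58 ± 1.42 TPM and Scx at 0.296 ± 0.129 TPM. Levels within a class differed widely: among fibro-adipogenic genes, the receptor Pdgfra that defines these cells was near the bottom while the matrix genes Dcn and Dpt were among the highest. Of the 31 genes, 30 passed the filter on low counts and only Scx did not.

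**Figure D1:**
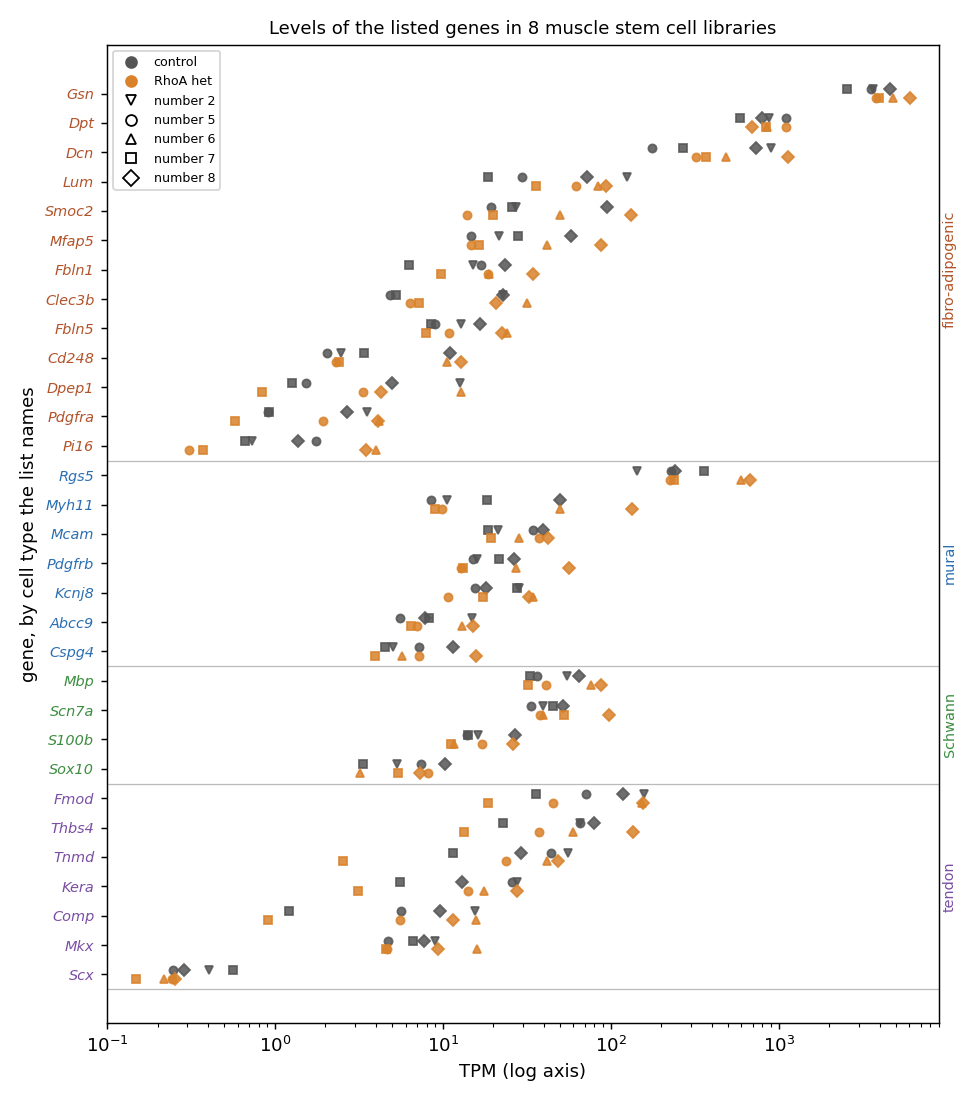
TPM (log axis) of the 31 listed genes in 8 libraries, grouped by class and ordered by mean level within it; grey points are control, orange points RhoA het, and the marker shape gives the replicate number. Gsn lies above all other genes, Scx below 1 TPM, and the colours intermingle for most genes.

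Fibro-adipogenic genes are described from the cell surface outward. Pdgfra encodes a receptor tyrosine kinase for platelet-derived growth factors. It was at 3.51, 0.912, 0.923 and 2.68 TPM in control and 1.92, 4.17, 0.581 and 4.1 TPM in RhoA het. Control replicates 5 and 7 and RhoA het replicate 7 were below 1 TPM, and both groups held low and high libraries. Cd248 (endosialin, a membrane glycoprotein of stromal cells) was at 2.46, 2.04, 3.41 and 11 TPM in control and 2.32, 10.7, 2.41 and 12.9 TPM in RhoA het. The 3 libraries above 10 TPM were control replicate 8 and RhoA het replicates 6 and 8. Dpep1, a membrane dipeptidase, ranged over 0.84 to 12.8 TPM and Pi16, a peptidase inhibitor that marks fibroblasts around vessels, over 0.308 to 3.97 TPM. Pi16 rested on 12 to 173 fragments per library and was highest in RhoA het replicates 6 and 8, at 3.97 and 3.49 TPM.

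Among the secreted matrix proteins, Dcn (decorin) and Lum (lumican) are small leucine-rich proteoglycans that bind collagen fibrils. Dcn was at 903, 176, 271 and 730.0 TPM in control and 321, 484, 367 and 1141 TPM in RhoA het. Control replicates 2 and 8 and RhoA het replicate 8 were the high libraries and control replicate 5 the lowest, with the groups overlapping throughout. Lum was at 125, 29.7, 18.6 and 72.6 TPM in control and 62.5, 83.5, 36.1 and 94 TPM in RhoA het. It was likewise high in control replicates 2 and 8 and RhoA het replicates 6 and 8, and lowest in control replicate 7. Their genes are neighbours: Dcn (mm39 chromosome 10, 97315471 to 97354005) and Lum (chromosome 10, 97400990 to 97408565) are separated by 47.0 kb, and 34.2 kb further lies Kera (chromosome 10, 97442741 to 97449554), a corneal and tendon proteoglycan of the same family listed here with the tendon genes. The next family member of this cluster, Epyc, had no fragment in 5 of 8 libraries and at most 0.533 TPM.

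Gsn and Dpt were the steadiest genes of their class. Gsn was at 3631, 3541, 2551 and 4574 TPM in control and 3776, 4801, 3973 and 6076 TPM in RhoA het, and Dpt (dermatopontin, a collagen-binding matrix protein) was at 873, 1103, 587 and 795 TPM in control and 1099, 852, 845 and 697 TPM in RhoA het. Between the highest and the lowest library they differed by 2.39-fold and 1.92-fold in CPM (counts relative to the TMM-scaled library size), close to the median of 1.99-fold over all genes tested. Pdgfra differed by 7.8-fold, Dcn by 7.1-fold, Lum by 8.71-fold, Smoc2 by 9.87-fold and Dpep1 by 19.4-fold. In TPM, Dpt also went against its class in order, with its highest values in the libraries numbered 5, where Dcn, Smoc2 and Mfap5 were low. In CPM its highest library was control replicate 2, as for Dcn and Lum.

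The remaining matrix genes of this class were Smoc2, a calcium-binding protein related to SPARC; Mfap5, a microfibril protein; Fbln1 and Fbln5, fibulins that take part in elastic fibre assembly; and Clec3b (tetranectin, a plasminogen-binding lectin). Smoc2 was at 27.1, 19.3, 25.7 and 95.1 TPM in control and 13.9, 49.5, 19.9 and 131 TPM in RhoA het. Both libraries numbered 8 stood above all others. Mfap5 showed the same order at its top, with 21.7, 14.6, 28.1 and 58.3 TPM in control and 14.6, 41.5, 16.3 and 87.7 TPM in RhoA het. Fbln1 ranged over 6.32 to 34.3 TPM, Fbln5 over 7.9 to 24.2 TPM and Clec3b over 4.86 to 31.8 TPM, each with its lowest values in libraries numbered 5 or 7.

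For 7 of 7 mural genes the highest library in TPM was RhoA het replicate 6 or 8, as it was for 11 of 13 fibro-adipogenic genes. Of the 15660 genes tested, 1561 were highest in TPM in RhoA het replicate 6 and 2593 in RhoA het replicate 8. In CPM, RhoA het replicate 6 was the highest for 1 mural and 3 fibro-adipogenic genes, and RhoA het replicate 8 for 4 and 5. Over all genes tested these CPM counts were 2098 and 2238. Among mural genes, Abcc9 was highest in CPM in control replicate 2 and Mcam in control replicate 8. Rgs5, a regulator of G protein signalling that marks pericytes, was at 144, 228, 357 and 241 TPM in control and 226, 600.3, 237 and 678 TPM in RhoA het. RhoA het replicates 6 and 8 were far above the other 6 libraries, which overlapped between the groups. Myh11, the smooth muscle myosin heavy chain, was at 10.6, 8.55, 18.4 and 50.0 TPM in control and 9.95, 50.2, 8.93 and 134 TPM in RhoA het. RhoA het replicate 8 was the highest, 2.46-fold above control replicate 8 in CPM, and RhoA het replicates 5 and 7 were as low as control replicates 2 and 5. Pdgfrb, the receptor tyrosine kinase through which endothelial signals recruit pericytes, was at 16, 15.1, 21.5 and 26.4 TPM in control and 12.8, 27.1, 13.1 and 56.5 TPM in RhoA het. It too peaked in RhoA het replicate 8.

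Kcnj8 and Abcc9 encode the pore and the regulatory subunit of the ATP-sensitive potassium channel of pericytes. They lie 16.2 kb apart (mm39 chromosome 6, 142510563 to 142517340, and chromosome 6, 142533588 to 142648041). Kcnj8 was at 28.3, 15.5, 27.8 and 18.1 TPM in control and 10.7, 34.4, 17.3 and 32.8 TPM in RhoA het, and Abcc9 at 14.8, 5.56, 8.26 and 7.8 TPM in control and 7.04, 12.9, 6.43 and 15.2 TPM in RhoA het. For both genes, control replicate 2 and RhoA het replicates 6 and 8 were the 3 highest libraries, although control replicate 7 came close for Kcnj8. Myh11 differed from them in control replicate 2, where it was low. Mcam, the cell adhesion molecule CD146, ranged over 18.5 to 42.4 TPM and was the steadiest mural gene (2.33-fold between extremes in CPM). Cspg4, the NG2 proteoglycan, ranged over 3.96 to 15.9 TPM.

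The 7 mural genes summed to 240.3, 314, 456 and 394 TPM in control and 311, 759, 306 and 975 TPM in RhoA het, and Rgs5 made up 60.0% to 79.1% of this sum. RhoA het replicates 6 and 8 thus held the highest sums. The endothelial markers moved with the mural sum in the former, where they summed to 519 TPM, but in RhoA het replicate 8 they summed to 166 TPM, inside the range of 69.4 to 181 TPM in control. None of the 10 was at 0 in any library. All 10 had positive log2 fold changes over the 8 libraries (median 1.72), and 4 of 10 over the 6 libraries numbered 5, 7 and 8 (median -0.062), where the mural genes had a median of 0.32. Their part in the mural values was not tested. A wider list of 16 further mural genes, led by Acta2 (293 to 1316 TPM), Heyl (196 to 375 TPM) and Vtn (142 to 294 TPM), summed to 1470.4, 1811, 1409 and 1804 TPM in control and 1499, 1946, 1412 and 2891 TPM in RhoA het, with RhoA het replicate 8 again the highest. Its 16 genes were all tested, 0 were called changed, and their median log2 fold change was 0.38. Acta2 encodes smooth muscle actin, Heyl a Notch effector and Vtn the adhesion protein vitronectin.

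Schwann cell genes were the most even of the 4 classes. Mbp, which encodes a major protein of compact myelin, was at 54.6, 36.2, 33 and 64.9 TPM in control and 41.2, 75.9, 31.9 and 87.7 TPM in RhoA het. Scn7a, an atypical sodium channel, was at 39.6, 33.5, 45.4 and 51.9 TPM in control and 37.8, 39.2, 52.9 and 97.9 TPM in RhoA het. The libraries numbered 8 were the highest of their group for both genes, and both libraries numbered 7 were the lowest of their group for Mbp. Sox10, the transcription factor required for Schwann cell identity, was at 5.32, 7.41, 3.36 and 10.3 TPM in control and 8.19, 3.21, 5.43 and 7.27 TPM in RhoA het, and S100b, a calcium-binding protein, at 16.1, 13.9, 14.2 and 26.8 TPM in control and 17.2, 11.7, 11.2 and 26 TPM in RhoA het. RhoA het replicate 6, which was second highest for Mbp, was the lowest for Sox10, so the genes of this class did not share an order. A wider list of 20 Schwann cell genes, led by Pmp22 (459 to 646 TPM), Egr2 (206 to 615 TPM) and Ncam1 (119 to 253 TPM), had 18 genes tested, 0 of them called, and a median log2 fold change of 0.043. Pmp22 encodes a myelin membrane protein, Ncam1 an adhesion molecule also made by muscle cells, and Egr2 a myelination factor that is also an immediate early gene.

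Tendon genes had the widest spread between libraries. Tnmd (tenomodulin), a membrane protein of mature tendon cells, was at 55.8, 44.3, 11.5 and 29.1 TPM in control and 23.7, 41.7, 2.54 and 48.7 TPM in RhoA het. Fmod (fibromodulin), a proteoglycan that organises collagen fibrils, was at 159, 70.8, 35.7 and 119 TPM in control and 45.4, 154, 18.6 and 156 TPM in RhoA het. Thbs4, a matrix thrombospondin, was at 65.9, 66, 22.8 and 79.1 TPM in control and 37.6, 60.0, 13.3 and 137 TPM in RhoA het. In each of these the libraries numbered 7 were the 2 lowest, and RhoA het replicate 7 was the lowest of all.

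The same held for the other matrix genes of the class. Comp, a thrombospondin of cartilage and tendon, was at 15.5, 5.66, 1.22 and 9.67 TPM in control and 5.56, 15.8, 0.905 and 11.5 TPM in RhoA het, and Kera (keratocan) at 27.8, 25.8, 5.59 and 13 TPM in control and 14, 17.7, 3.14 and 27.6 TPM in RhoA het. The extremes differed by 28.3-fold for Tnmd, 22-fold for Comp, 11.4-fold for Kera, 11-fold for Fmod and 10.3-fold for Thbs4 in CPM. Both libraries numbered 7 were the 2 lowest of 8 for 5 of the 6 tendon genes tested, against 4.45% of all genes tested. The exception was Mkx, a homeobox transcription factor of tendon, at 9, 4.75, 6.68 and 7.74 TPM in control and 4.63, 16.1, 4.59 and 9.38 TPM in RhoA het. Scx, the basic helix-loop-helix factor of the tendon lineage, was barely covered, with 6, 3, 9 and 4 fragments in control and 3, 3, 2 and 3 fragments in RhoA het. It did not pass the filter on low counts and was left out of the main test. Thus the structural genes of tendon were present at up to 159 TPM in libraries where Scx stayed below 1 TPM.

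Fmod and Thbs4 shared their 3 lowest libraries (both numbered 7, and RhoA het replicate 5), as did Tnmd and Comp. The 250 bases before the transcription starts of Fmod and Thbs4 are shown, with the CANNTG motif (the E-box bound by basic helix-loop-helix factors such as Scx) in capitals. The RefSeq promoter table (GRCm38.p6, not the mm39 build of the counts) held 18 of the 31 genes and 4 of the 7 tendon genes. The stretches are Fmod chr1:134037004-134037253 (plus strand) and Thbs4 chr13:92794819-92795068 (minus strand), 5′ to 3′.
Fmod: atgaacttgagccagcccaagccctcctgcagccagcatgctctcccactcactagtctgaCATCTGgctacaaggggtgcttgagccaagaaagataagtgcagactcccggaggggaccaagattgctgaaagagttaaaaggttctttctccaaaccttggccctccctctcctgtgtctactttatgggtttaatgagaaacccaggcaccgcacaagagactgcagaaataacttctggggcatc
Thbs4: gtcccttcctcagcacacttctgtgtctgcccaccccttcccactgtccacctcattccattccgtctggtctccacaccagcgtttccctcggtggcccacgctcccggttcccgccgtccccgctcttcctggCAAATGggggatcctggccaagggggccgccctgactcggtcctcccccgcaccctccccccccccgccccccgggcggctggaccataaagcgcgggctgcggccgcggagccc
Each holds 1 such motif, and 66.2% of the 32851 promoter stretches of this length in the table hold at least 1, so the match is a description only. The stretches of Kera and of Tnmd, with its same 3 lowest libraries, hold none.

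The libraries were next compared by replicate number. Numbers 5, 7 and 8 occur in both groups, and for each gene the difference between same-numbered libraries of the 2 groups was set beside the difference between libraries of 1 group with different numbers. Same-numbered libraries were closer for 30 of the 30 listed genes tested and for 65% of all genes tested. The median distance on the log2 CPM scale was 0.46 within a number and 1.22 within a group for the listed genes, and 0.28 and 0.37 for all genes. Comp was the clearest case, at 0.18 within a number and 2.18 within a group, and Pi16 the least clear, at 1.41 and 1.53. Among these 6 libraries, both libraries numbered 8 were the 2 highest for 23 of the 30 genes, 11 of them fibro-adipogenic, 5 mural, 3 Schwann and 4 tendon, against 14.3% of all genes. The listed genes also varied more than most: the median SD of log2 CPM over the 8 libraries was 0.89, against 0.33 for all genes tested. It was 1.22 for tendon, 1.04 for fibro-adipogenic, 0.68 for mural and 0.55 for Schwann genes. What the replicate numbers stand for is not given in the labels.

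**Figure D2:**
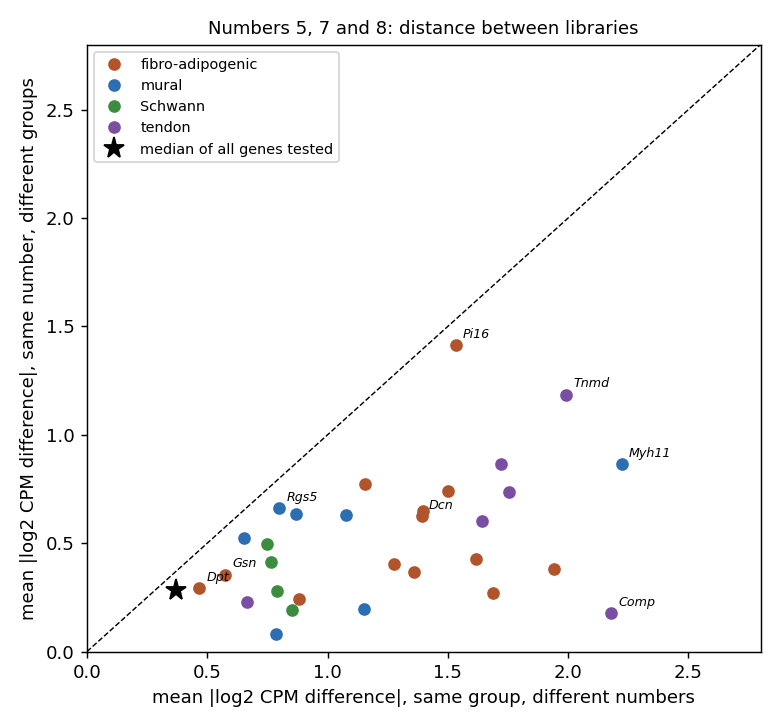
Each point is a listed gene: the mean absolute log2 CPM difference between libraries of the same group with different numbers (x axis) against that between same-numbered libraries of different groups (y axis), over numbers 5, 7 and 8. All 30 genes lie below the dashed line of equality, and the star marks the medians of all genes tested.

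**Figure D3:**
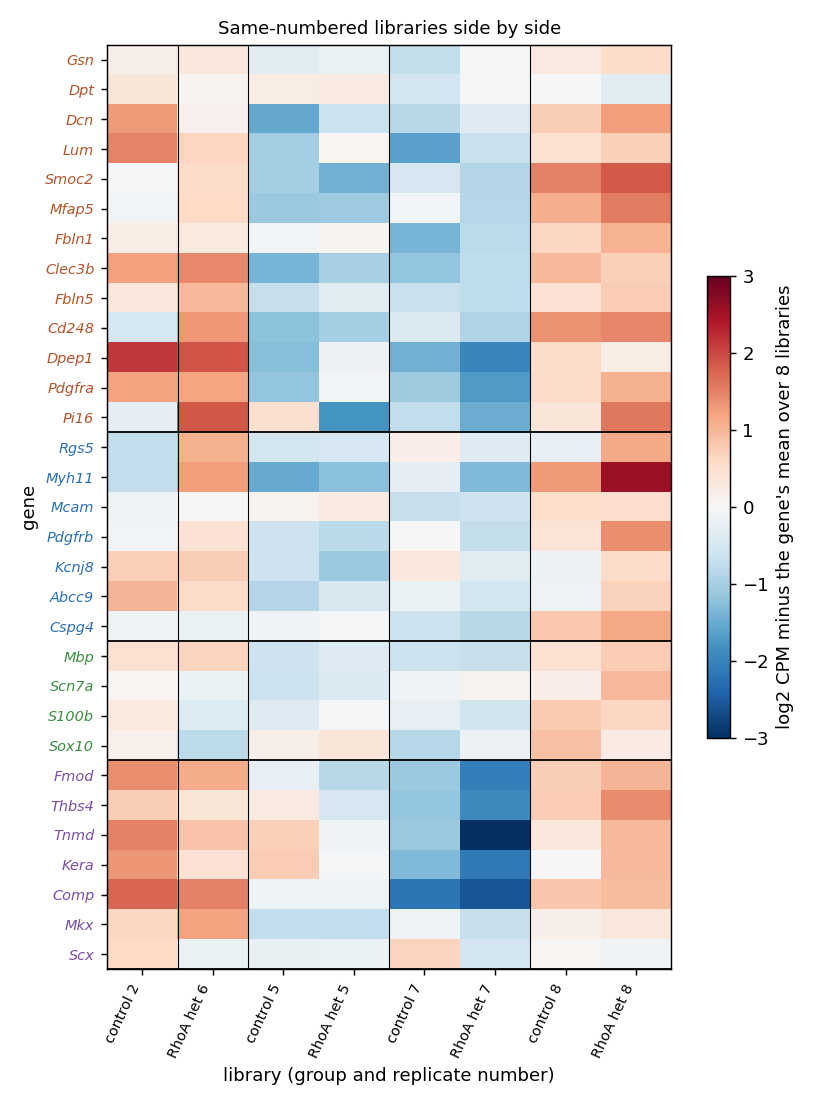
Log2 CPM of each listed gene minus its mean over 8 libraries, with same-numbered libraries side by side (control replicate 2 and RhoA het replicate 6 have no partner among the libraries). Red is above and blue below the gene's mean: the libraries numbered 8 are mostly red, and the tendon genes Tnmd, Comp, Fmod and Kera are deep blue in number 7.

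The position of a library also depended on the scale for control replicate 2, whose TMM factor was the lowest (0.852, against 0.968 to 1.07 in the others). In CPM it was the highest library for 10 of the 30 genes, and in TPM for 4. RhoA het replicate 8 was the highest for 12 genes in CPM and for 15 in TPM, while control replicates 5 and 7 and RhoA het replicates 5 and 7 were the highest for 0 genes in CPM. RhoA het replicate 7 was the lowest for 11 genes in CPM, 5 of them tendon genes.

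The comparison of RhoA het with control asked whether any of these genes changed with the genotype. None of the 30 genes tested was called. The edgeR quasi-likelihood test, fitted on 15660 genes with Benjamini-Hochberg adjustment, called 0% of them at 0.05, and the lowest adjusted p among the listed genes was 0.99983. At an unadjusted p under 0.05, 0 of the 30 passed, against 2.38% of all genes tested; the DESeq2 Wald test gave 1 (Rgs5) and limma on log2 TPM 0. The groups overlapped in CPM for all 30 genes, while 1.81% of all genes tested had groups that did not overlap. Of the 30, 18 had a positive and 12 a negative log2 fold change, with a median of 0.11, beside a median of -0.00071 over all genes. The lowest unadjusted p belonged to Rgs5, with a log2 fold change of 0.81 (SE 0.40, 95% interval -0.085 to 1.71) and p = 0.0712 in edgeR; its exact permutation p was 0.257 (two-sided, 70 assignments, smallest possible 0.0286). Without RhoA het replicate 6 it was 0.57, and without RhoA het replicate 8 0.53.

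By class, 9 of 13 fibro-adipogenic genes had positive log2 fold changes (median 0.27), 6 of 7 mural genes (median 0.12), 2 of 4 Schwann genes (median 0.0017) and 1 of 6 tendon genes (median -0.13). The intervals were wide. Pdgfra had a log2 fold change of 0.27 (SE 0.68, 95% interval -1.27 to 1.80), Dcn of -0.031 (SE 0.62, 95% interval -1.41 to 1.35), Myh11 of 1.13 (SE 0.89, 95% interval -0.86 to 3.11) and Tnmd of -0.39 (SE 0.75, 95% interval -2.06 to 1.28). Myh11, with the largest value of the 30, was at 0.036 without RhoA het replicate 8, at 1.95 without control replicate 8 and at 0.18 with the replicate block. The narrowest interval belonged to Dpt, at -0.034 (SE 0.21, 95% interval -0.51 to 0.44), and Gsn had 0.28 (SE 0.26, 95% interval -0.29 to 0.86). Dcn held 6189 to 39032 fragments per library, so counting error was small beside the spread between libraries. The class medians moved with single libraries. Without RhoA het replicate 8 they were -0.0069 for fibro-adipogenic, -0.18 for mural, -0.21 for Schwann and -0.62 for tendon genes, the lowest over all 8 ways of leaving out a library. The highest were 0.51 (fibro-adipogenic, without RhoA het replicate 7), 0.48 and 0.24 (mural and Schwann, without control replicate 8), and 0.23 (tendon, without control replicate 2).

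The fibro-adipogenic sum was 5122 ± 1236 TPM in control and 6341 ± 1426 TPM in RhoA het (mean ± SD of 4 libraries, as for the other classes). Gsn held 64.2% to 75.1% of it. Without Gsn the fibro-adipogenic sum was 2021, 1379, 957 and 1834 TPM in control. In RhoA het it was 1555, 1616, 1314 and 2254 TPM. The mural sum was 351 ± 93.8 TPM in control and 588 ± 334 TPM in RhoA het, the Schwann sum 114 ± 28.6 TPM in control and 139 ± 55 TPM in RhoA het and the tendon sum 223 ± 104 TPM in control and 218 ± 159 TPM in RhoA het. In each class the difference of the means was smaller than the larger SD of the 2 groups, and the ranges overlapped. By library, the tendon sum was 333, 218, 84 and 258 TPM in control and 131, 306, 43.3 and 390.3 TPM in RhoA het, lowest in number 7 in both groups.

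**Figure D4:**
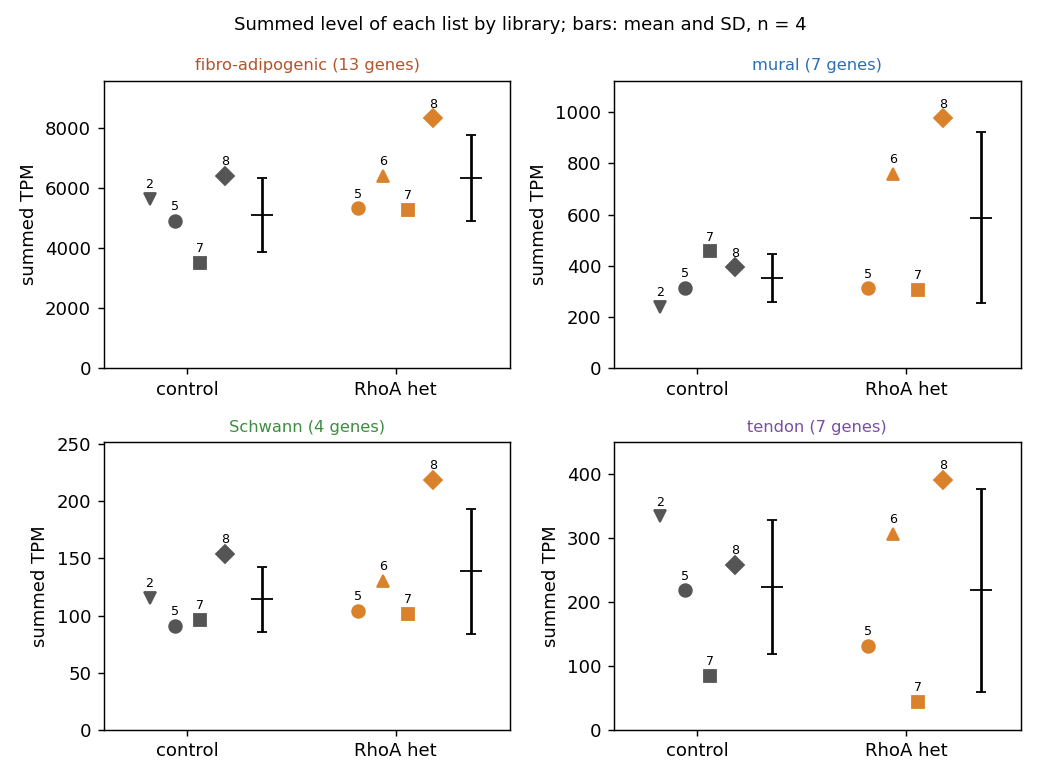
Summed TPM of each class in each library (points, numbered by replicate), with the mean and SD of the 4 libraries of a group (bars); axes start at 0. RhoA het replicate 8 has the highest sum in all 4 classes, and number 7 has the lowest tendon sum in both groups.

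When pairs of numbers 5, 7 and 8 were fitted as blocks, again 0 of the 30 genes was called, against 2 of 15714 genes (0.0127%). At an unadjusted p under 0.05, 6 of the 30 passed, against 5.26% of all genes; the same 6 libraries without the block gave 0, against 1.77%. Of these 6, 5 were higher in RhoA het (Dcn, Lum, Gsn, Fbln1 and Scn7a, against 2.98% of all genes) and Fmod was lower. The smallest p values were those of the proteoglycan neighbours. Dcn had a log2 fold change of 0.60 (SE 0.14) with the block (edgeR adjusted p 0.343), from differences of 0.91, 0.44 and 0.52 in numbers 5, 7 and 8. Lum had 0.74 (SE 0.17), with an edgeR adjusted p of 0.353, from differences of 1.11, 0.96 and 0.25. Both were higher in RhoA het in 3 of 3 pairs, whereas over all 8 libraries, where control replicate 2 and RhoA het replicate 6 also enter, their log2 fold changes were -0.031 and -0.031.

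Of the 30 genes, 5 were higher in RhoA het in 3 of 3 pairs (13.6% of all genes tested) and 0 were lower in 3 of 3 (12.5%). Beside Dcn and Lum these were Gsn (0.13, 0.64 and 0.29 on the log2 scale in numbers 5, 7 and 8), Fbln1 (0.17, 0.62 and 0.42) and Scn7a (0.22, 0.22 and 0.79). Their block estimates were 0.33 (SE 0.14), 0.38 (SE 0.15) and 0.39 (SE 0.14), with edgeR adjusted p of 0.927, 0.87 and 0.788. Fmod had -0.43 (SE 0.19), with an edgeR adjusted p of 0.931, from differences of -0.60, -0.93 and 0.28. All 6 tendon genes tested had negative block estimates, from -0.66 for Tnmd to -0.066 for Comp, but none was lower in all 3 pairs: in number 8 each of them was higher in RhoA het. Kera, the tendon-listed neighbour of Lum, had -0.22 (SE 0.32), from -0.83, -0.80 and 0.96. Among mural genes, 0 moved the same way in 3 of 3 pairs; Rgs5 differed by 0.028, -0.59 and 1.37 and Myh11 by 0.26, -1.04 and 1.30.

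The 2 genes called with the block, named here after their values were seen, were genes of muscle fibres: Acta1 (skeletal actin), at -1.32 (edgeR adjusted p 0.0275), and Atp2a1 (the calcium pump of fast fibres), at -1.40 (edgeR adjusted p 0.0349). Of the 14 myofibre markers, 13 were tested with the block and 13 had negative log2 fold changes, with a median of -1.22. Over all 8 libraries, without the block, Acta1 was at -0.050 (SE 0.86). There the 14 myofibre markers had a median of -0.11, with 12 negative and 2 positive. In the pairs in which Dcn and Lum were higher in RhoA het, the summed myofibre markers went from 1214 to 530.1, from 502 to 208 and from 232 to 165 TPM. Of the 10 muscle stem cell markers, 3 were lower and 0 higher in RhoA het in 3 of 3 pairs, and their block median was -0.08. Pax7 was among the 3, going from 71.2 to 46.6, from 100.1 to 56.5 and from 60.1 to 46.9 TPM, with a block estimate of -0.65 that was not called. The part of these markers in the paired values of the listed genes was not tested.

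**Figure D5:**
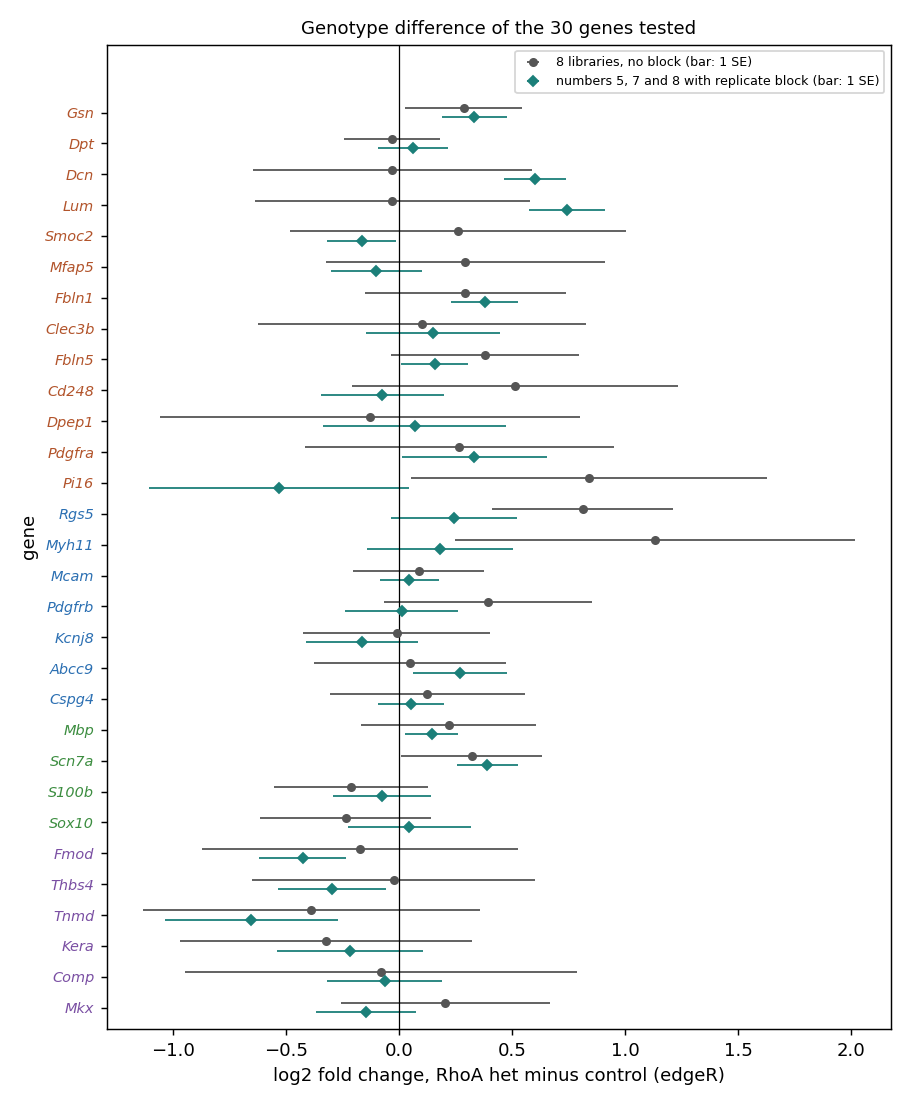
Log2 fold change (RhoA het minus control, edgeR) of the 30 genes tested, over all 8 libraries (grey) and over numbers 5, 7 and 8 with the replicate block (green); bars are 1 SE. The bars are shorter with the block for all genes, Dcn and Lum move from near 0 to above 0.5, and the tendon genes lie below 0 with the block.

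The families to which the listed genes belong were read from the same fit. Of 7 genes of platelet-derived growth factor signalling, 7 were tested, 0 called, and 6 had positive log2 fold changes (median 0.27); the most abundant was the receptor-like gene Pdgfrl (59.4 to 131 TPM), followed by the ligand Pdgfa (15.4 to 51.6 TPM) and by Pdgfrb. Pdgfra, with 0.581 to 4.17 TPM, was thus below its ligand gene in every library. Of 15 small leucine-rich proteoglycan genes, 13 were tested and 0 called, with 8 positive and 5 negative (median 0.034). Prelp (604 to 1009.6 TPM) and Ogn (182 to 392 TPM) were the most abundant beside Dcn, and their extremes were much closer together than those of Dcn, Lum, Fmod and Kera. Epyc and Podnl1 were at 0 in at least 1 library. Of 20 fibulin and elastic fibre genes, 20 were tested and 0 called (14 positive, median 0.059); Ltbp4, a latent TGF-beta binding protein, led at 417 to 772 TPM, followed by the crosslinking enzyme gene Loxl1 (114 to 235 TPM) and Fbln2 (84.7 to 297 TPM). Among the 5 thrombospondins, 0 were called and 1 was positive (median -0.081); Thbs2 (173 to 517 TPM) and Thbs1 (134 to 255 TPM) were above the listed Thbs4 and Comp on average.

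Wider lists of the other classes gave no call either. Of 20 further fibro-adipogenic genes, 20 were tested, 0 called and 15 positive (median 0.094); they were led by the antioxidant enzyme gene Gpx3 (8929 to 21000.3 TPM), the complement inhibitor gene Serping1 (1456 to 2151 TPM) and the hyaluronan synthase gene Has1 (319 to 475 TPM). Their sum was lowest in both libraries numbered 5. Of 12 further tendon genes, 12 were tested, 0 called and 8 positive (median 0.42), led by the protease gene Htra3 (187 to 412 TPM), Ecrg4 (15.7 to 80.7 TPM) and the matrix gene Tnc (7.78 to 71 TPM). With the replicate block, 4 of these 12 had positive values (median -0.13), as had 16 of the 20 wider fibro-adipogenic genes (median 0.12), 15 of the 16 mural ones (median 0.17) and 14 of the 19 Schwann ones tested in that fit (median 0.17). None of them was called. In 3 of 3 pairs, 7 of the wider fibro-adipogenic, 4 of the mural, 9 of the Schwann and 1 of the tendon genes were higher in RhoA het, beside the 13.6% of all genes given above. In the same order of lists, 1, 0, 1 and 2 genes were lower in 3 of 3 pairs, beside 12.5% of all genes.

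The 14 myofibre genes summed to 205, 1214, 502 and 232 TPM in control and 530.1, 983, 208 and 165 TPM in RhoA het, with Acta1 the most abundant and Myh2 the least, and Tnnc2 was at 0 in 1 library. They were high in control replicate 5 and RhoA het replicate 6 and low in control replicates 2 and 8 and RhoA het replicates 7 and 8. The 6 immune genes summed to 299 to 828 TPM in control and 235 to 809.7 TPM in RhoA het. Lyz2 (209 to 817 TPM) led them, while Adgre1 and Cd3e were at 0 in several libraries. The immune sum was highest in both libraries numbered 8, as were most of the listed genes among the 6 paired libraries. The 5 erythroid genes summed to 53.7, 8.68, 623 and 88.5 TPM in control and 12.1, 1284, 26.9 and 111 TPM in RhoA het, highest in RhoA het replicate 6 and control replicate 7. What part these cells have in the values of the listed genes was not tested.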

How the data were processed

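RNA of purified muscle stem cells was sequenced after template-switching cDNA synthesis with a low-input kit, per the labels' protocols. The deposited counts are raw fragments per gene. Per the file headers, featureCounts 1.6.4 counted read pairs against GENCODE mouse release 34 exons (mm39); STAR, cutadapt and DESeq2 are named in the submitters' processing notes. The command set no strand or multi-mapping option, so fragments of overlapping genes and near-identical copies are uncertain; of the listed genes, Pdgfra shares the largest part of its exon bases with other genes (6.50%). The command named 10 alignment files; 8 libraries are in the table, and the other 2 were not analysed here. TPM as deposited by the authors could be rebuilt from the counts and gene lengths (largest relative difference 2e-14). Symbols came from GENCODE release 21 by identifier (51884 of 57180 genes); Ecrg4 was found by its older name.

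Counts were filtered with filterByExpr (15660 genes kept, 41520 removed), scaled by TMM and compared in edgeR 4.0.16 under R 4.3.3 by quasi-likelihood, without covariates; p-values were adjusted over all genes (Benjamini-Hochberg, threshold 0.05). Log2 CPM uses a prior count of 2. The test was checked on simulated data. Sums and levels use TPM. Alternatives were other scalings and filters, DESeq2 1.42.0, limma 3.58.1 on log2(TPM + 1) and log2(TPM + 0.1), a replicate block, and the omission of 1 library at a time. Same-numbered libraries of the 2 groups deviated together from their group means (r = 0.544, 0.231 and 0.488 for numbers 5, 7 and 8, across genes), which is why the block is reported. The meaning of the numbers is not labelled. All listed genes are named, with at most 3 genes of each wider or family list by mean TPM. Of other lists, only some of the most and least abundant genes and of the check genes are named. Genes at 0 in any library are also named, and the genes called with the block were named after their values were seen. The members and lists were chosen with earlier results of these data known.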

Additional observations from a re-analysis of the deposited data

How the results depend on the processing

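The count of listed genes called changed was 0 under every alternative run, and the count over all genes was 0 except with the replicate block, where it was 2. Since no listed gene passed the threshold, the signs below carry little weight; the cause of a changed sign was not tested. With the replicate block over numbers 5, 7 and 8, signs opposite to those over 8 libraries were seen, as log2 fold changes, of 0.60 for Dcn, 0.74 for Lum, 0.062 for Dpt, -0.53 for Pi16, -0.076 for Cd248, -0.17 for Smoc2, 0.067 for Dpep1, -0.10 for Mfap5, 0.044 for Sox10 and -0.15 for Mkx. The block changed no call of a listed gene. The same 6 libraries without the block gave 0.53 for Dcn, 0.58 for Lum, 0.046 for Dpt, -0.0053 for Cd248, -0.049 for Clec3b, 0.015 for Dpep1, -0.11 for Mkx, 0.10 for Thbs4 and 0.037 for Comp. Total counts without further scaling gave 0.087 for Dcn, 0.10 for Lum, 0.028 for Dpt, 9.02e-05 for Dpep1, 0.045 for Kcnj8, 0.044 for Thbs4 and 0.028 for Comp. limma on log2(TPM + 1) gave 0.26 for Dcn, 0.44 for Lum, 0.074 for Dpt, 0.079 for Dpep1 and 0.0033 for Comp, and on log2(TPM + 0.1) 0.26 for Dcn, 0.45 for Lum, 0.074 for Dpt and 0.086 for Dpep1. Rgs5 passed an unadjusted p of 0.05 without the filter on low counts and without control replicate 7, RhoA het replicate 5 or RhoA het replicate 7 in edgeR; its adjusted p stayed above 0.05 in each. DESeq2 size factors, upper-quartile factors, the DESeq2 Wald test and the other filters reversed no gene. The log2 ratio of the summed TPM of the fibro-adipogenic genes was 0.31, and -0.12 with the wider list in their place. For the tendon genes it was -0.036, and 0.21 with the wider list. For the mural genes it was 0.74, and 0.22 to 0.49 over alternatives that include the wider list. For the Schwann genes it was 0.28, and 0.0072 to 0.25 over the same alternatives. Leaving out 1 library at a time changed the sign for 24 genes, whose ranges were -0.59 to 0.51 for Dcn, -0.35 to 0.75 for Lum, -0.19 to 0.091 for Dpt, -1.13 to 1.04 for Dpep1, -0.29 to 0.24 for Kcnj8, -0.74 to 0.076 for Tnmd, -0.58 to 0.32 for Fmod, -0.75 to 0.30 for Thbs4, -0.64 to 0.62 for Comp, -0.74 to 0.11 for Kera, -0.081 to 0.82 for Pdgfra, -0.66 to 1.06 for Smoc2, -0.50 to 0.57 for Clec3b, -0.19 to 0.53 for Abcc9, -0.34 to 0.46 for Mkx, -0.093 to 0.30 for Mcam, -0.41 to 0.48 for Cspg4, -0.47 to 0.076 for Sox10, -0.52 to 0.057 for S100b, -0.077 to 0.57 for Fbln1, -0.41 to 0.81 for Mfap5, -0.22 to 0.64 for Pdgfrb, -0.022 to 0.42 for Mbp and -0.072 to 0.49 for Scn7a. With the block, the SE was smaller for all 30 genes tested, from 6 libraries. Scx, at 2 to 9 fragments per library, was too shallow for the main test. Without the filter on low counts all 31 listed genes, Scx among them, were tested and 0 were called.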
